A study of Rattus norvegicus with 18 samples.

Results

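The genes described here encode the proteins of the cytosolic ribosome in rat pXEN cells, an extraembryonic endoderm precursor line that the labels call rat XENP. They were chosen by symbol (Rpl, Rps, Rpsa and Rplp names, pseudogene symbols left out) and by a sum of at least 100 counts over 18 libraries. Of 28695 rows in the files, 81 carried such a symbol and 69 reached the sum, 40 from the large subunit (Rpl) and 29 from the small subunit (Rps). The nearest members inside the limit were Rpl36a with 183 counts and Rps18l1 with 312, and the nearest outside were Rpl39l with 92 and Rpl35a with 81. The other 10 below the limit were Rpl7a, Rpl8, Rplp2, Rpl3l, Rps6, Rpl30l1, Rpl39, Rps29, Rpl38 and Rps19, with 0 to 40 counts each. Several of those genes are ordinarily abundant, so their counts describe what the authors' counting assigned to these symbols and not the genes' expression.

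A ribosome joins a small subunit, which decodes the message, to a large subunit, which forms the peptide bond. Each subunit is built on ribosomal RNA in the nucleolus from about equal amounts of its proteins, so the genes of this family are known to be expressed together. Most of their messages begin with a C followed by a run of pyrimidines, the terminal oligopyrimidine (TOP) motif, through which mTORC1 is known to set their translation and stability. MYC family factors are known to raise the transcription of ribosomal protein genes and of the factors that assemble ribosomes.

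The cultures fell into 6 groups, with 3 libraries in each. Serum-free vesicles were grown with the GSK3 inhibitor Chir99021, and serum vesicles were grown with Chir99021 and serum. For vesicles the protocol names N2B27 medium with 3 µM Chir99021 and 10 ng/ml murine LIF, without feeder cells, PD0325901 or Y-27632. That description was taken for the serum-free vesicles, and the inhibitor dose and medium of the serum vesicles are not clear from it. Vacuolated cells were made in routine culture with 0.5 µM Chir99021, and were collected either after a sort or unsorted. Other vacuolated cells were made with 14% BCS, which the labels leave as an abbreviation, and were unsorted. Normal cells were kept in routine culture. All were female cells of the WKY strain from blastocysts, at passages 32 to 51. Separate preparations are stated and separate derivations are not, so each p-value measures the spread between these samples.

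Libraries of total RNA depleted of ribosomal RNA held 4050722 to 12074939 strand-specific counts. A pair of unnamed rows took 37.6 to 61.1% of them, which left 1919117 to 6541182 counts for all other genes. The pair took 53.6 to 61.1% in serum-free vesicles, 51.0 to 60.8% in serum vesicles and 37.6 to 43.6% in normal cells. Of the counts outside the pair, mitochondrially encoded genes took 7.11 to 9.43% in serum-free vesicles, 7.91 to 9.31% in serum vesicles, 6.76 to 8.91% in sorted cells and 3.13 to 3.38% in normal cells. All 11 of the extraembryonic endoderm markers examined, Gata4, Gata6 and Sox17 among them, had counts in every group, but their levels were not alike. Mean Gata6 was 15.8 CPM in serum-free and 13.8 CPM in serum vesicles, against 80.1 CPM in normal cells. Of the markers of other embryonic lineages, picked here with their values seen, Cubn of visceral endoderm was at 32.7 and 8.46 CPM in serum-free and serum vesicles against 344 CPM in normal cells. Thbd of parietal endoderm was at 34.9 and 26.4 against 264 CPM, and Pou5f1 of pluripotent cells at 0.746 and 1.25 against 118 CPM. Cdx2 of trophoblast was at 22.2 CPM in serum-free and 24.96 CPM in serum vesicles and had no count in normal cells. Other markers of these lists, also picked with their values seen, went the other way. In the same order, parietal Krt8 was at 898 and 730 against 117 CPM, and visceral Hnf4a at 64.1 and 40.9 against 8.39 CPM. Klf4 of pluripotent cells was at 58.6 and 75.7 against 31.4 CPM, and Eomes of trophoblast at 0.969 and 0.854 against 8.25 CPM. Summed by list, visceral and pluripotency markers were lower in both vesicle groups than in normal cells, and parietal and trophoblast markers higher. These directions come mainly from few genes: Cubn, Pou5f1, Cdx2, and Krt8 with Krt18 (473 and 464 against 67.0 CPM). Like Thbd, parietal Pth1r (200 and 140 against 313 CPM), Vim (19.4 and 4.17 against 108 CPM) and Stra6 were lower. Parietal Plat was higher (27.5 and 52.9 against 3.18 CPM), and Snai1 was at 3.28 and 4.49 against 4.40 CPM. The part of these shifts in the results on vesicles was not tested. The 8 feeder fibroblast markers together reached 1.09 to 2.07 CPM in serum-free vesicles, 3.19 to 15.9 CPM in serum vesicles and 1.06 to 12.7 CPM in normal cells, with 4 or 5 of them at 0 in each of the 6 groups. CPM are counts relative to library size after TMM scaling.

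All 69 genes passed the filter on low counts, as did 11503 genes in all. RefSeq lists pseudogene symbols for 64 of the 69, 756 in all, and reads shared with such copies cannot be assigned with certainty. Counting was by strand. In the unstranded column Rpl10a and Rpl23a were listed at 0 and Rpl31 had 33.9% of its strand-specific count. In these bulk samples, fewer cells of a kind and less RNA per cell cannot be told apart.

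The start of each gene is shown because the TOP motif lies there. RefSeq (build GRCr8) has a promoter for 53 of the 69 genes, and the stretches below run from 40 bases before the annotated start to its first 20 bases, on the gene's strand. Capitals mark the longest run of C and T with at least 8 letters that starts with C and lies within 20 bases of the start. Such a run was found in 31 of 53 members (58.5%), against 11.6% of all 33469 promoters in the table, and on the opposite strand in 1 of 53 members and 13.2% of all promoters. The motif CTTTCC was found in 15 of 53 members (28.3%), against 1.73% of all promoters, and CTTTTC in 8 (15.1%), against 1.44%; both can lie inside the run. The first 4 below are the members whose values the text turns on most. The next 5 hold relatives that behaved differently from the rest of the family (Rps27l, Rps4y2 and Rpl7l1), with Rps27 and Rps4x, which the first of these resemble. Rpl7, which Rpl7l1 resembles, has no promoter in the table.
Rpl4, chr8:73566437-73566496, plus strand: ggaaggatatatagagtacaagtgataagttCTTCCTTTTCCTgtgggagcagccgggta
Rplp0, chr12:46718371-46718430, minus strand: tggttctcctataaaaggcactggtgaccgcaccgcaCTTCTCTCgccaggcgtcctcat
Rps2, chr10:14251808-14251867, plus strand: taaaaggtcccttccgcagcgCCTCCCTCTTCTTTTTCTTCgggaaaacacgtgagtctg
Rps28, chr7:15311314-15311373, minus strand: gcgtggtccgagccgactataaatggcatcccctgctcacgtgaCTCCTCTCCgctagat
Rps27, chr2:177964587-177964646, minus strand: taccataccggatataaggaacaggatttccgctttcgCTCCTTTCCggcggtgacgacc
Rps27l, chr8:76443618-76443677, plus strand: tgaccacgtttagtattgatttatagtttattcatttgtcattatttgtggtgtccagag
Rps4x, chrX:71342902-71342961, minus strand: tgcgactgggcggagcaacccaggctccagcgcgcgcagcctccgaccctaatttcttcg
Rps4y2, chr4:183000873-183000932, plus strand: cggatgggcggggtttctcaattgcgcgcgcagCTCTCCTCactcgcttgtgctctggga
Rpl7l1, chr9:21695678-21695737, plus strand: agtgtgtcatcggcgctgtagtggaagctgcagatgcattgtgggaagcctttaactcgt
In these windows Rps27 carries a run where its relative Rps27l has none, and Rps4y2 carries one where Rps4x has none. A missing run says only that these letters are not in this window.

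The family differed most between the vesicle groups. Summed over the 69 genes, the share of counts outside the unnamed pair was 7.0 ± 0.29% in serum-free vesicles and 4.45 ± 0.41% in serum vesicles (SD, n = 3 each), against 6.19 ± 0.41% in normal cells. The single libraries were at 7.10, 7.22 and 6.68% in serum-free vesicles, at 4.80, 4.56 and 3.99% in serum vesicles, and at 6.44, 5.71 and 6.42% in normal cells. The vesicle groups did not overlap each other, and each lay outside the range of normal cells, serum-free vesicles above it and serum vesicles below it. The place of serum-free vesicles depended on the denominator: as a share of all counts, the unnamed pair included, they stood at 3.06 ± 0.24%, below normal cells at 3.63 ± 0.07% and above serum vesicles at 2.01 ± 0.30%. With mitochondrially encoded genes left out of the denominator as well as the pair, the log2 ratio of the shares was 0.65 for serum-free over serum vesicles, 0.26 for serum-free vesicles over normal cells and -0.40 for serum vesicles over normal cells.

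The means of the vacuolated groups lay between those of serum vesicles and normal cells in the summed share outside the pair. It was 5.34 ± 0.52% in sorted cells, 5.88 ± 0.13% in unsorted Chir99021 cells and 5.21 ± 0.20% in BCS cells. Sorted cells (4.77 to 5.78%) overlapped normal cells, as did unsorted Chir99021 cells (5.78 to 6.03%), and BCS cells (4.97 to 5.33%) lay below them. Sorted cells also overlapped serum vesicles (3.99 to 4.80%). As a share of all counts, each vacuolated group lay below normal cells (3.56 to 3.71%) without overlap. Sorted cells were then at 2.44 to 2.96%, unsorted Chir99021 cells at 2.79 to 3.22% and BCS cells at 2.52 to 2.91%. Counts of large subunit genes were 1.86 ± 0.04 times those of small subunit genes in sorted cells, against 1.75 ± 0.03 in normal cells and 1.76 to 1.77 in the other 4 groups.

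**Figure D1:**
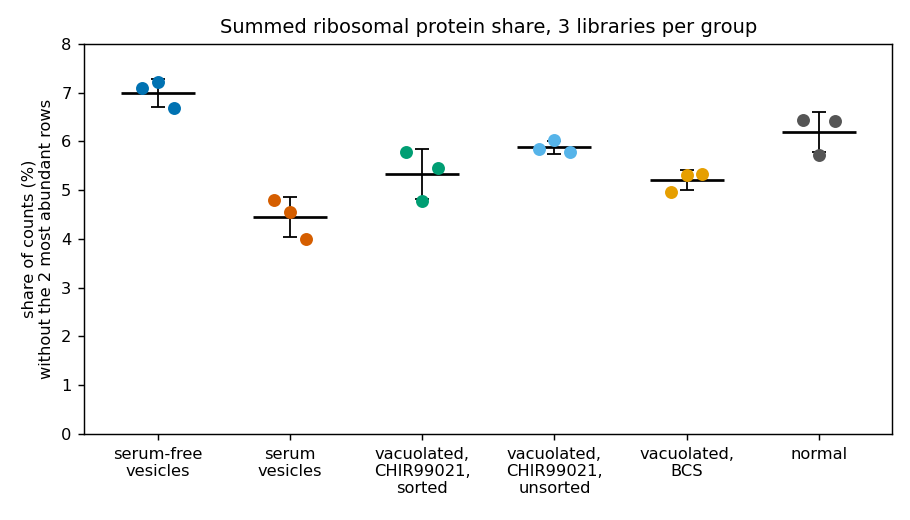
Summed share of the 69 ribosomal protein genes in each library (points), as a percentage of the counts outside the 2 most abundant rows, with the group mean (line) and SD (bar) of 3 libraries per group. Serum-free vesicles (6.68 to 7.22%) lie above and serum vesicles (3.99 to 4.80%) below normal cells (5.71 to 6.44%); with those 2 rows in the denominator, serum-free vesicles fall below normal cells (3.06 against 3.63%).

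Gene by gene, 62 of the 69 were higher and 0 lower in serum-free than in serum vesicles (edgeR's quasi-likelihood test, Benjamini-Hochberg adjustment over all 11503 genes, adjusted p under 0.05), where 24.4% of all genes were called, 12.9% higher and 11.5% lower. At an unadjusted p under 0.05 the counts were 63 higher and 1 lower, and DESeq2 called 62 and 1. Shares of all genes at the unadjusted p and by DESeq2 are not given here, so these counts are not read as results about the family. The median log2 fold change was 0.81 over the family and 0.02 over all genes tested. Large and small subunit genes had the same pattern, with 37 of 40 and 25 of 29 higher and medians of 0.81 each. The middle 50% of members lay between 0.66 and 0.91.

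The 3 members that took the most counts over all libraries, which also depends on gene length, show the size of the difference. Rpl4, a large subunit protein near the exit tunnel, had 1960, 2085 and 1990 CPM in serum-free vesicles and 1057, 1042 and 889 CPM in serum vesicles, against 1959, 1769 and 1908 CPM in normal cells. Every serum vesicle library lay below every other library of these groups, at a log2 fold change of 1.01 ± 0.12 (SE, adjusted p = 2.35e-06) for serum-free over serum vesicles and -0.92 ± 0.12 (adjusted p = 2.33e-07) for serum vesicles over normal cells. For serum-free vesicles over normal cells the Rpl4 value was 0.10 ± 0.11 (adjusted p = 0.475).

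Rplp0, which anchors the stalk that recruits elongation factors, had 2002, 2151 and 2081 CPM in serum-free vesicles and 1312, 1235 and 1092 CPM in serum vesicles, against 1598, 1557 and 1550 CPM in normal cells. The 3 groups did not overlap and Rplp0 was called against normal cells in opposite directions, at 0.41 ± 0.11 (adjusted p = 0.0039) in serum-free vesicles and -0.37 ± 0.11 (adjusted p = 0.00731) in serum vesicles, each over normal cells. Rps2, a small subunit protein near the entry of the messenger RNA, had 1186, 1254 and 1026 CPM in serum-free vesicles and 763, 694 and 581 CPM in serum vesicles, against 1634, 1723 and 1683 CPM in normal cells. Normal cells were highest and serum vesicles lowest without overlap, at -0.54 ± 0.12 (adjusted p = 0.000549) and -1.31 ± 0.12 (adjusted p = 2.46e-09) over normal cells for serum-free and serum vesicles. All 3 members thus had a like ratio of serum-free to serum vesicles, while normal cells lay between these groups for Rpl4 (where serum-free vesicles and normal cells did not pass the test) and Rplp0 and above both for Rps2.

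By the naming rule, the members with the highest ratio of serum-free to serum vesicles were Rpl36a, Rpl17, Rpl27a, Rps23 and Rps25. Rpl17, at the exit tunnel, had 342, 457 and 453 CPM in serum-free vesicles and 196, 194 and 188 CPM in serum vesicles, against 327, 234 and 272 CPM in normal cells (log2 fold change between the vesicle groups 1.12 ± 0.15, adjusted p = 1.17e-05). Rpl27a of the large subunit was at 842 ± 65.0 and 403 ± 64.8 CPM in serum-free and serum vesicles (1.06 ± 0.13, adjusted p = 5.95e-06). Rps23, a protein of the decoding centre, was at 638 ± 50.2 and 311 ± 61.2 CPM (1.04 ± 0.15), and Rps25, needed by several viral internal ribosome entry sites, at 400 ± 25.7 and 195 ± 33.5 CPM (1.03 ± 0.15). All of these vesicle groups stood apart without overlap. Rpl36a rested on few counts, at 1.88, 2.31 and 1.63 CPM in serum-free vesicles and 1.22, 0.139 and 0.231 CPM in serum vesicles. Its call (1.79 ± 0.62, adjusted p = 0.0381) was lost without serum replicate 2 or 3, or without any serum-free replicate, at adjusted p from 0.0536 to 0.15.

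**Figure D2:**
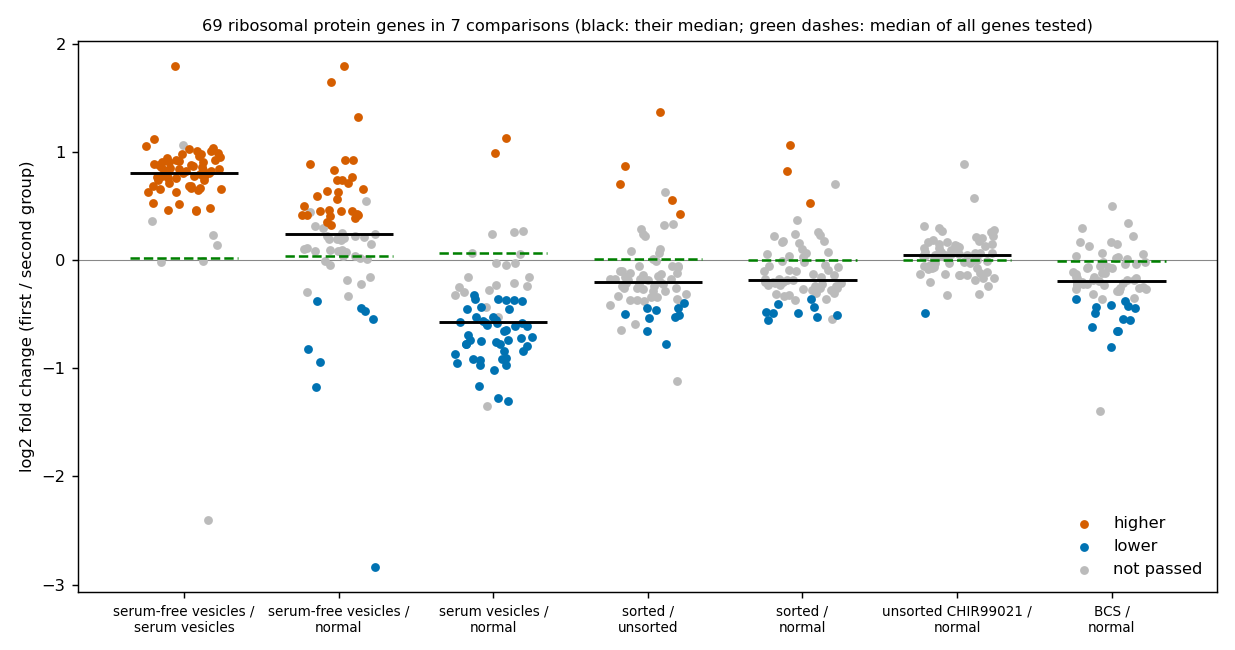
Log2 fold change of each of the 69 genes (points) in 7 comparisons, first group over second, with the median of the family (black line) and of all genes tested (green dashes); colour gives the call at adjusted p under 0.05. The family's median is 0.81 for serum-free over serum vesicles, 0.25 for serum-free vesicles over normal cells (where the summed share of all counts has the opposite sign), -0.57 for serum vesicles over normal cells, and between -0.20 and 0.05 in the other 4.

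Against normal cells, serum vesicles had 47 members lower and 2 higher, where 60.4% of all genes were called, 28.8% lower and 31.7% higher. The family median was -0.57 and that of all genes 0.06. The largest decreases with no overlap were in Rps2, in Rps20 (265, 259 and 178 CPM in serum vesicles, against 570, 470 and 655 CPM in normal cells, -1.27 ± 0.16), in Rpl7l1, in Rpl10a (260 ± 36.3 against 524 ± 21.8 CPM, -1.01 ± 0.12) and in Rpl12 (252 ± 31.8 against 495 ± 25.8 CPM, -0.97 ± 0.14). Rps20 sits on the head of the small subunit, Rpl10a on the L1 stalk and Rpl12 at the base of the P stalk. The adjusted p of the last 3 named was at most 1.1e-06.

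Against the same normal cells, serum-free vesicles had 29 members higher and 8 lower, where 57.7% of all genes were called, 30.2% higher and 27.5% lower, with a family median of 0.25 against 0.03 for all genes. With single replicates left out, the family median ranged from 0.12 (without normal replicate 2) to 0.35 (without serum-free replicate 3). In normal replicate 2 only 7 of the 69 members lay above their mean over normal cells, with a median of -0.19 in log2 CPM. As a share of all counts the family was lower in serum-free vesicles than in normal cells, as given above. Of the members, 42.0% were called higher and 11.6% lower. Rpl28, a large subunit protein, was among the 5 highest, with 213, 205 and 184 CPM in serum-free vesicles and 141, 111 and 129 CPM in serum vesicles, against 116, 92.3 and 108 CPM in normal cells. Serum-free vesicles stood above both other groups, at 0.93 ± 0.12 over normal cells (adjusted p = 7.44e-07), and for serum vesicles the value was 0.27 ± 0.12 (adjusted p = 0.0635).

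Both vesicle groups were set against the same normal libraries, so the calls are given side by side. Of the 69 genes, 27 (39.1%, against 7.13% of all genes tested) were lower in serum vesicles and did not pass in serum-free vesicles, and 14 (20.3% against 5.9%) did not pass in serum vesicles and were higher in serum-free vesicles. A further 13 (18.8%, against 0.296% of all genes) were higher in serum-free and lower in serum vesicles: Rpl5, Rpl6, Rpl7, Rpl9, Rpl14, Rpl17, Rpl23a, Rpl27a, Rplp0, Rps12, Rps23, Rps25 and Rps27. Single libraries decide some of these calls: Rpl7 was lost from the 13 without serum replicate 3 (adjusted p = 0.0531 in serum vesicles), and Rps27 is treated below. Among the 13, only Rpl7, Rplp0 and Rps27 were followed over normal cells in both groups with single replicates left out, and Rplp0 kept both calls. Rpl5, which joins the 5S RNA in the particle that can bind Mdm2 and was picked with its values seen, had 1142, 1234 and 1081 CPM in serum-free vesicles and 661, 639 and 546 CPM in serum vesicles, against 896, 873 and 996 CPM in normal cells. The 3 groups did not overlap. Of the other members, 7 were lower in both (10.1% against 21.3% of all genes; Rpl12, Rpl24, Rpl7l1, Rps2, Rps20, Rps27l and Rps4y2), 2 were higher in both (2.9% against 24.0%), 1 was lower in serum-free vesicles with no call in serum vesicles, and 5 passed in neither (Rpl19, Rpl22l1, Rpl35, Rpl36a and Rps15a). In all, 48 of 69 genes had their highest group mean in serum-free vesicles and 50 their lowest in serum vesicles. The same counts were not made over all genes, so this order is not read as particular to the family.

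**Figure D3:**
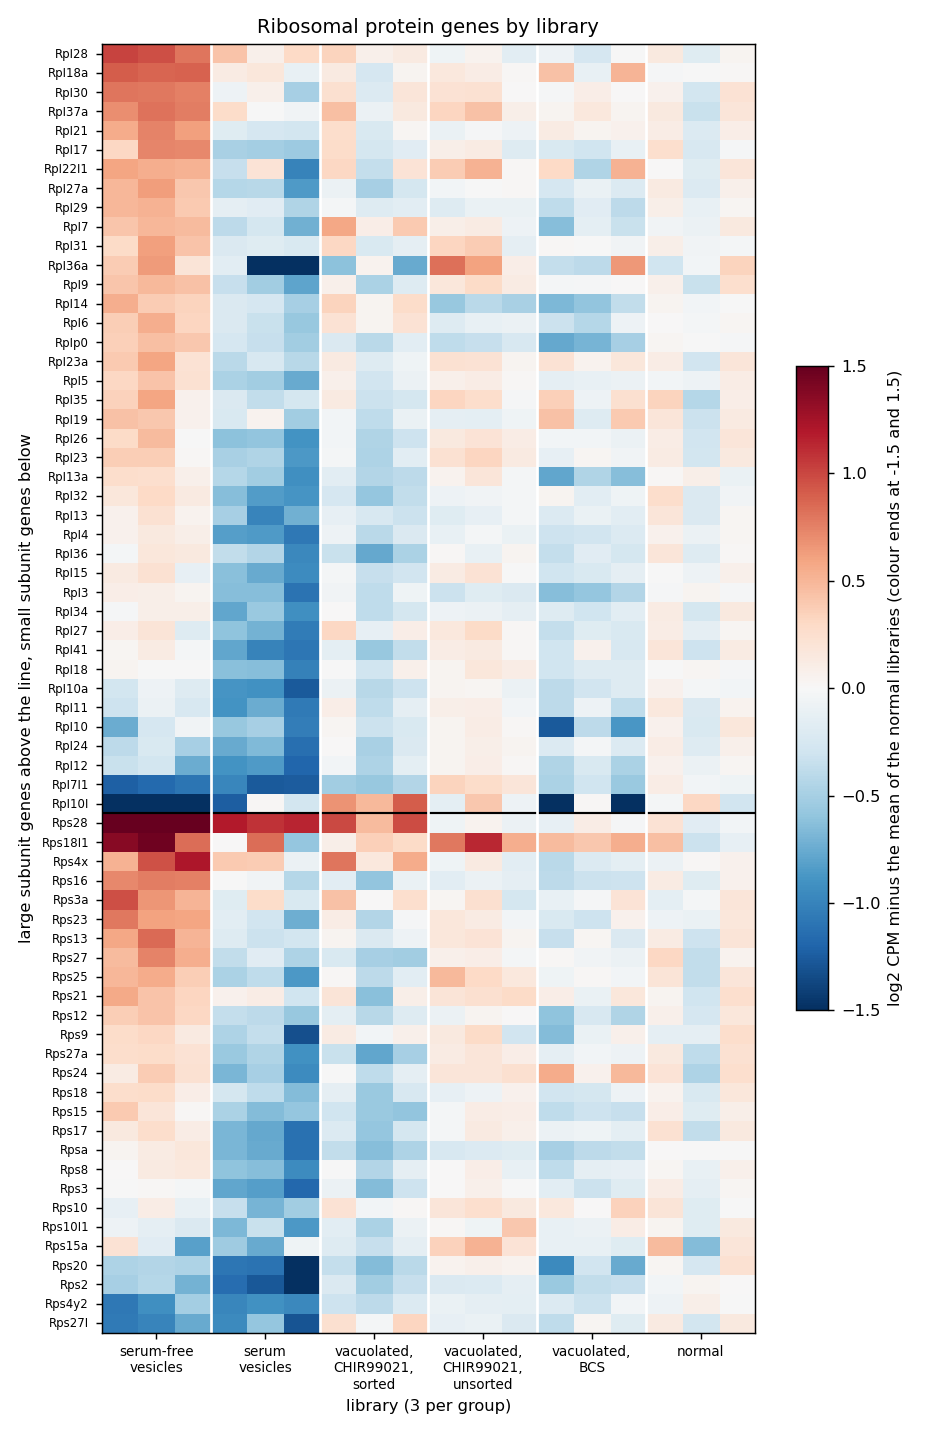
Log2 CPM of ribosomal protein genes in each library, minus the mean of the 3 normal libraries, with groups in columns and genes ordered within each subunit by the serum-free vesicle value. Most genes are blue (lower) in serum vesicles and pale to red (higher) in serum-free vesicles; Rps28 is red in both and in sorted cells, and Rps2, Rps20, Rps4y2, Rps27l and Rpl7l1 are blue in both vesicle groups.

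Rps28 was among the members higher in both vesicle groups than in normal cells, and was also higher in sorted cells. Rps28, a small protein at the exit of the messenger RNA channel, had 367, 342 and 394 CPM in serum-free vesicles, 241, 224 and 232 CPM in serum vesicles and 210, 147 and 208 CPM in sorted cells, against 122, 93.6 and 103 CPM in normal cells. It had 101, 109 and 99.1 CPM in unsorted Chir99021 cells and 97.2, 114 and 104 CPM in BCS cells. The first 3 groups lay above all libraries of the others, with log2 fold changes over normal cells of 1.79 ± 0.13 (adjusted p = 4.36e-11), 1.13 ± 0.13 (adjusted p = 8.73e-08) and 0.83 ± 0.13 (adjusted p = 6e-05) for serum-free vesicles, serum vesicles and sorted cells.

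Rps28 was also higher in sorted than in unsorted Chir99021 cells, at 0.87 ± 0.13 (adjusted p = 8.64e-05). The 3 groups in which Rps28 was higher than in normal cells are also those with more mitochondrially encoded RNA, as given above; its part in the result was not tested.

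Rps4x, the X-linked copy of a small subunit protein, had 342, 463 and 552 CPM in serum-free vesicles, 312, 310 and 224 CPM in serum vesicles and 414, 265 and 351 CPM in sorted cells, against 224, 240 and 249 CPM in normal cells. Serum-free vesicles and sorted cells did not overlap normal cells, and serum vesicles did. The log2 fold changes over normal cells were 0.93 ± 0.17 (adjusted p = 4.76e-05) in serum-free vesicles, 0.25 ± 0.17 (adjusted p = 0.208) in serum vesicles and 0.53 ± 0.17 (adjusted p = 0.0207) in sorted cells. The call in sorted cells was lost without normal replicate 1 or 2, or without sorted replicate 1 or 3 (adjusted p from 0.0573 to 0.129).

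Several relatives of ribosomal proteins changed otherwise than the genes they resemble, and 1, Rps10l1, kept a share of 32.1 to 36.8% of its pair with Rps10 in all 6 group means (picked with its values seen). Rps27l differs from Rps27 by few residues and is known as a p53 target in human cells. Rps27l had 75.1, 79.3 and 93.3 CPM in serum-free vesicles and 81.4, 105 and 64.1 CPM in serum vesicles, against 173, 130 and 174 CPM in normal cells. It was lower in both vesicle groups than in normal cells, at -0.94 ± 0.16 (adjusted p = 1.66e-05) and -0.92 ± 0.16 (adjusted p = 2.1e-05), and the vesicle groups overlapped (-0.02 ± 0.16, adjusted p = 0.941).

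Rps27 had 487, 590 and 513 CPM in serum-free vesicles and 272, 311 and 255 CPM in serum vesicles, against 434, 272 and 364 CPM in normal cells. Serum-free vesicles lay above both, at 0.92 ± 0.14 over serum vesicles (adjusted p = 4.66e-05) and 0.57 ± 0.14 over normal cells (adjusted p = 0.00102). Serum vesicles overlapped normal cells at -0.35 ± 0.14 (adjusted p = 0.0295), a call that was lost without normal replicate 1 or 3, or without serum replicate 1 or 3 (adjusted p from 0.0688 to 0.249). Of the counts of both genes together, Rps27l took 13.5 ± 1.8% in serum-free vesicles, 22.8 ± 2.6% in serum vesicles, 40.5 ± 3.6% in sorted cells, 28.2 ± 0.2% in unsorted Chir99021 cells, 29.1 ± 3.5% in BCS cells and 31.0 ± 2.2% in normal cells (SD, n = 3 each). The share was lower in each vesicle library and higher in each sorted library than in any normal library.

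Rps4y2 is a relative of Rps4x that RefSeq places on chromosome 4. It had 77.6, 85.8 and 114 CPM in serum-free vesicles and 82.8, 86.8 and 83.4 CPM in serum vesicles, against 154, 173 and 163 CPM in normal cells. Both vesicle groups lay below normal cells, at -0.82 ± 0.13 (adjusted p = 5.49e-06) and -0.95 ± 0.13 (adjusted p = 5.74e-07), and the value between them was 0.14 ± 0.13 (adjusted p = 0.464). Of the counts of Rps4x and Rps4y2, Rps4y2 took 17.1 ± 1.4% in serum-free vesicles, 23.3 ± 3.3% in serum vesicles and 28.2 ± 3.9% in sorted cells, against 40.7 ± 1.2% in normal cells, with no overlap between those groups and normal cells. In unsorted Chir99021 and BCS cells the share was 39.1 ± 2.5 and 41.8 ± 2.7%. The genes are close relatives, and reads shared between them cannot be assigned with certainty.

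Rpl7l1, a relative of Rpl7 known to act in the assembly of the large subunit in human cells, had 16.4, 17.1 and 17.9 CPM in serum-free vesicles and 17.2 ± 1.97 CPM in serum vesicles, against 41.6, 37.6 and 36.9 CPM in normal cells. Both vesicle groups stood below normal cells by -1.17 ± 0.14 (adjusted p = 1.12e-07 and 1.3e-07), with -0.01 ± 0.15 between them (adjusted p = 0.983). It had 26.8, 26.0 and 28.6 CPM in sorted cells, against 48.8, 46.7 and 43.7 CPM in unsorted Chir99021 cells (-0.77 ± 0.13, adjusted p = 0.000337). Rpl7 itself was at 1331 ± 37.6 CPM in serum-free vesicles and 709 ± 110 CPM in serum vesicles, against 969 ± 88.5 CPM in normal cells.

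Rps18l1, a low-count relative of Rps18, had 4.33, 4.61 and 2.91 CPM in serum-free vesicles and 1.52, 2.92 and 0.92 CPM in serum vesicles, against 2.15, 1.15 and 1.36 CPM in normal cells. It was higher in serum-free vesicles than in normal cells (1.33 ± 0.41, adjusted p = 0.00746) and overlapped between the vesicle groups (1.07 ± 0.40, adjusted p = 0.0508). Rpl22l1 is a relative of Rpl22, which had no row in these counts and could not be set beside it. Rpl22l1 had 77.2, 74.8 and 73.4 CPM in serum-free vesicles and 40.2, 59.1 and 25.4 CPM in serum vesicles, against 51.3, 45.1 and 57.8 CPM in normal cells. Serum-free vesicles lay above both other groups, and the call over serum vesicles (0.84 ± 0.26, adjusted p = 0.0293) was lost without serum replicate 1 or 3, or without any serum-free replicate (adjusted p from 0.0624 to 0.114).

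Rpl10l, a retrogene copy of the X-linked Rpl10 that is known from testis in mouse and human, had 0.941, 1.58 and 3.61 CPM in serum-free vesicles and 6.39, 15.6 and 12.7 CPM in serum vesicles, against 15.1, 19.2 and 12.6 CPM in normal cells. Serum-free vesicles lay below both, at -2.83 ± 0.92 over normal cells (adjusted p = 0.0188), a call lost without serum-free replicate 1 or 2 (adjusted p = 0.0567 and 0.0642). BCS cells were split, with 2 and 4 Rpl10l counts in replicates 1 and 3 and 141 in replicate 2, which stood at passage 32 against 41 and 42. Normal cells at passages 37, 40 and 51 had 84, 100 and 83 Rpl10l counts. Serum-free vesicles at passages 32, 35 and 42 had 5, 13 and 31. The part of passage in the split was not tested. The difference of Rpl10l between BCS and normal cells did not pass (-1.40 ± 0.80, adjusted p = 0.251). Without BCS replicate 2 it was -5.09 (adjusted p = 1.86e-06), and with no filter on low counts it passed at a like size (-1.38, adjusted p = 4.18e-07). Replicate 2 (15.5 CPM) lay within the range of normal cells (12.6 to 19.2 CPM). The BCS counts are the same with and without the filter, so the smaller p follows from how that fit estimates the spread. Neither value is read as a difference of BCS cells as a group.

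**Figure D4:**
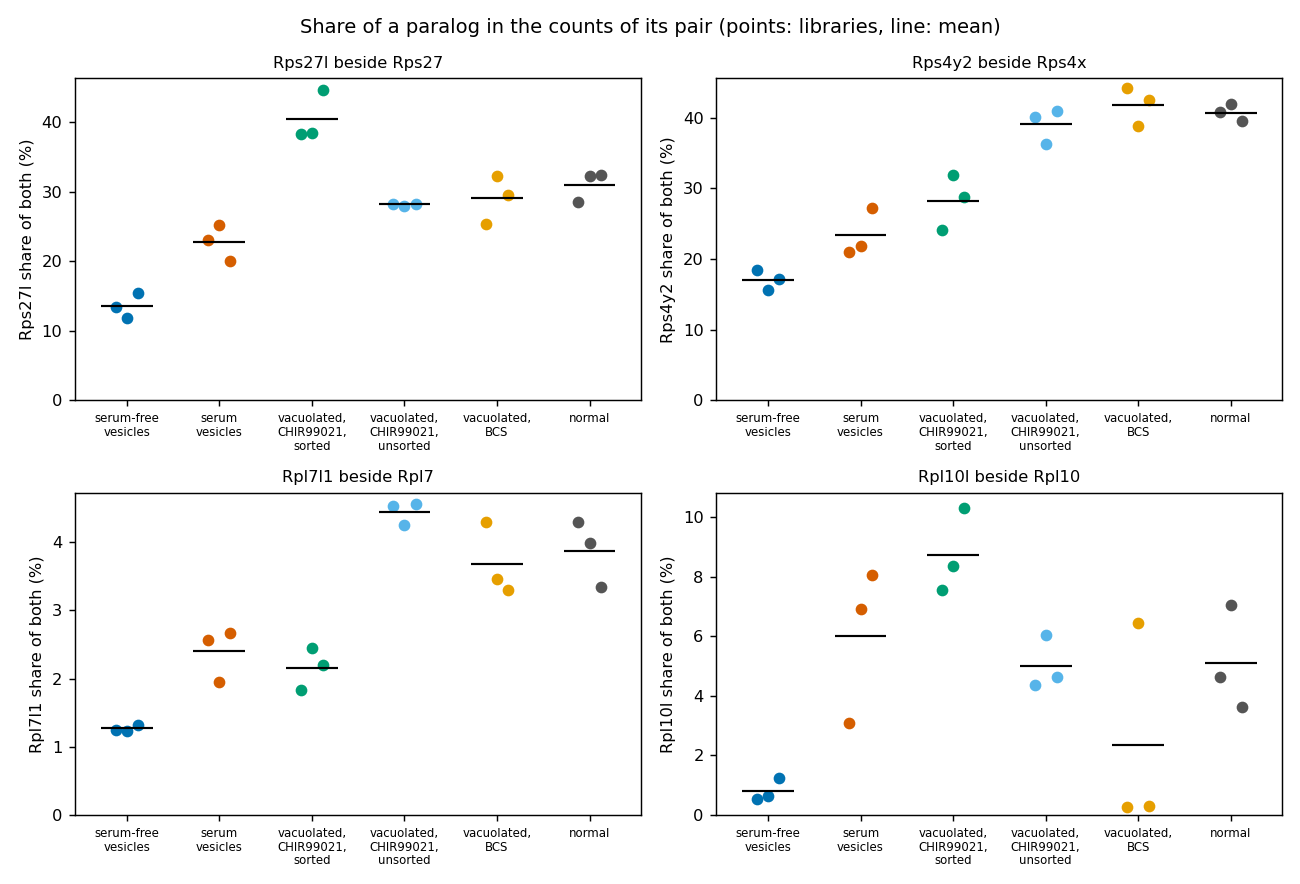
Percentage of the counts of a gene and its relative that fell on the relative, in each library (points) with the group mean (line). Rps27l, Rps4y2 and Rpl7l1 take their smallest mean shares in serum-free vesicles (13.5, 17.1 and 1.27%), and Rpl10l has under 0.4% in BCS replicates 1 and 3 and 6.44% in replicate 2.

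The members that did not pass between the vesicle groups were Rpl7l1, Rps27l, Rps4y2, Rpl10, Rpl10l, Rps15a and Rps18l1, listed with their values seen. To ask which members differed from the family itself, library sizes were also taken from the summed members, a setting added after the data were examined. With it the median of all genes stood at -0.81 log2 in serum-free over serum vesicles, against 0.02 under TMM scaling, so only changes relative to the family can be read from it. The sum holds the members themselves, so values on both sides of the family follow from its construction. On that scale 1 member lay above the family (Rpl27a, 0.24, adjusted p = 0.0352) and 11 below it, where 0.982% and 68.7% of all genes did. Those with the smallest adjusted p were Rps27l (-0.83, adjusted p = 3.69e-05), Rpl7l1 (-0.83, adjusted p = 0.000176) and Rps4y2 (-0.69, adjusted p = 0.000448), and the others were Rpl10, Rpl10l, Rpl12, Rpl24, Rps10, Rps10l1, Rps15a and Rps21. Serum vesicles over normal cells had 17 above and 14 below, and serum-free vesicles over normal cells 17 and 13, where 51.9% and 12.4% of all genes lay above and below in the first and 22.0% and 34.1% in the second. Sorted cells over normal cells had 8 above and 3 below (17.5% and 4.57% of all genes), BCS cells 5 and 6 (17.7% and 2.37%), and unsorted Chir99021 cells 0 above and Rpl14 below (3.64% and 2.02%). Sorted over unsorted Chir99021 cells had 8 above and 5 below, where 8.48% and 1.37% of all genes did.

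Members with the pyrimidine run shown above and those without it had like medians between the vesicle groups; no test of the difference was made. The median log2 fold change of serum-free over serum vesicles was 0.78 for 31 members with a run, 0.79 for 22 without and 0.84 for 16 that have no promoter in the table. For serum-free vesicles over normal cells the medians were 0.32, 0.11 and 0.29, and for serum vesicles over normal cells -0.52, -0.72 and -0.51. Rps28 and Rps2, picked with their values seen, both carry a run, with log2 fold changes of 1.13 and -1.31 in serum vesicles over normal cells. The window depends on the annotated start, so members without a run in it may still have the TOP motif in their message. The part of the motif in these changes was not tested.

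In vacuolated cells, set against the same normal libraries, fewer members were called. Unsorted Chir99021 cells had 1 member lower and 0 higher than normal cells, where 7.62% of all genes were called, 3.13% lower and 4.49% higher (edgeR; 3 lower and 1 higher at an unadjusted p under 0.05, and 2 lower and 0 higher by DESeq2). The unadjusted and DESeq2 counts stand without their shares of all genes and are not read as results about the family. The family median was 0.05, while the log2 ratio of the summed shares was -0.07. The gene was Rpl14, a large subunit protein, with 278, 314 and 295 CPM in unsorted Chir99021 cells, against 427, 404 and 413 CPM in normal cells (-0.49 ± 0.12, adjusted p = 0.00983). The groups did not overlap, but the call was lost without unsorted replicate 1 (adjusted p = 0.0741), which left 0 members called.

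BCS cells had 13 members lower and 0 higher than normal cells, where 20.7% of all genes were called, 9.51% lower and 11.2% higher (edgeR; 21 and 2 at an unadjusted p under 0.05, and 17 lower and 0 higher by DESeq2). Again the unadjusted and DESeq2 counts stand without their shares of all genes and are not read as results about the family. The family median was -0.20 and that of all genes -0.0038. Rplp0 had 920, 968 and 1106 CPM in BCS cells, against 1598, 1557 and 1550 CPM in normal cells, all BCS libraries lying below (-0.65 ± 0.11, adjusted p = 0.000271). Rpl10, at the peptidyl transferase centre, had 124, 226 and 162 CPM in BCS cells, against 309, 253 and 334 CPM in normal cells (-0.81 ± 0.19, adjusted p = 0.00559). The other lowest members were Rps20 (-0.65 ± 0.16), Rpl13a (-0.62 ± 0.13) and Rpl3 (-0.56 ± 0.13). Without BCS replicate 1, 7 members were called lower.

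Sorted cells had 3 members higher and 9 lower than normal cells, where 25.9% of all genes were called, 14.4% higher and 11.5% lower, with a family median of -0.18 against 0.01 for all genes. The higher members included Rps28 and Rps4x, described above. The lowest among members without overlap were Rpl36 (-0.53 ± 0.14), Rpl7l1 (-0.51 ± 0.13), Rpsa (-0.49 ± 0.12), Rps15 (-0.48 ± 0.12) and Rps20 (-0.48 ± 0.16), of which Rpl36 lost the call without normal replicate 1 or sorted replicate 2, and Rps20 without normal replicate 1 or 3 or sorted replicate 2 or 3. Rpsa, which is also known as the laminin receptor precursor, had 841, 693 and 785 CPM in sorted cells, against 1091, 1078 and 1079 CPM in normal cells, and the groups did not overlap (adjusted p = 0.00343). Without normal replicate 1 the counts were 2 higher and 4 lower.

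Sorted over unsorted Chir99021 cells, 5 members were higher and 10 lower, where 11.7% of all genes were called, 6.69% higher and 5.05% lower, and the family median was -0.20. The higher members included Rps28, Rpl14 and Rps4x; the call of Rps4x (0.55 ± 0.17) was lost without unsorted replicate 1 or 3 or sorted replicate 1 or 3. Rpl14 had 523, 425 and 502 CPM in sorted cells, against 278, 314 and 295 CPM in unsorted cells (0.71 ± 0.12, adjusted p = 0.000269), with no overlap. Rps27a, made as a fusion with ubiquitin, was lower in sorted cells, at 117 ± 17.9 against 184 ± 5.90 CPM in unsorted cells (-0.66 ± 0.14, adjusted p = 0.00317). The counts moved by over 1.5 times when any unsorted replicate or sorted replicate 2 or 3 was left out, to between 6 and 9 members in all.

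Genes that work with the ribosomal proteins were read beside them; between the vesicle groups 12.9% of all genes were called higher and 11.5% lower. Of 4 ribosomal proteins outside the name rule, 3 were higher in serum-free than in serum vesicles, Rack1 (log2 fold change 0.74) and Rpl36al (0.99) among them, and the value of Fau was -0.09 (adjusted p = 0.845). Among 21 translation factors and other messages known to carry a TOP motif, 13 (61.9%) were higher and 1 (4.76%) lower in serum-free than in serum vesicles, with a median of 0.44. Eef2, which moves the ribosome along the message, was higher in both vesicle groups than in normal cells (1.73 ± 0.13 in serum-free and 0.88 ± 0.13 in serum vesicles), and Eef1b2, a subunit of the factor that recharges Eef1a, was lower in serum vesicles (-1.78 ± 0.21). Of 71 mitochondrial ribosomal proteins, 24 (33.8%) were higher in serum-free than in serum vesicles and the other 47 did not pass (median 0.34).

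Ribosome assembly genes had another pattern. Of 45 assembly factors, 34 (75.6%) were lower and 2 (4.44%) higher than in normal cells in serum-free vesicles (median -0.97), and again 34 lower and 2 higher in serum vesicles (median -1.11), where 27.5% and 28.8% of all genes were called lower and 30.2% and 31.7% higher. Between the vesicle groups 6 (13.3%) were higher and 1 (2.22%) lower (median 0.15). Fbl, the methyltransferase of the nucleolus, had log2 fold changes over normal cells of -1.55 in serum-free and -1.94 ± 0.13 in serum vesicles. Bop1 was at -2.25 ± 0.15 in serum-free vesicles and -2.07 in serum vesicles, and Mrto4 was at -2.12 ± 0.15 and -2.39 ± 0.15; both act on the large subunit. In sorted cells 3 assembly factors (6.67%, against 14.4% of all genes) were higher and 19 (42.2% against 11.5%) lower than in normal cells. In BCS cells 6 (13.3% against 11.2%) were higher and 17 (37.8% against 9.51%) lower, and in unsorted Chir99021 cells 5 (11.1% against 4.49%) were higher and the others did not pass.

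**Figure D5:**
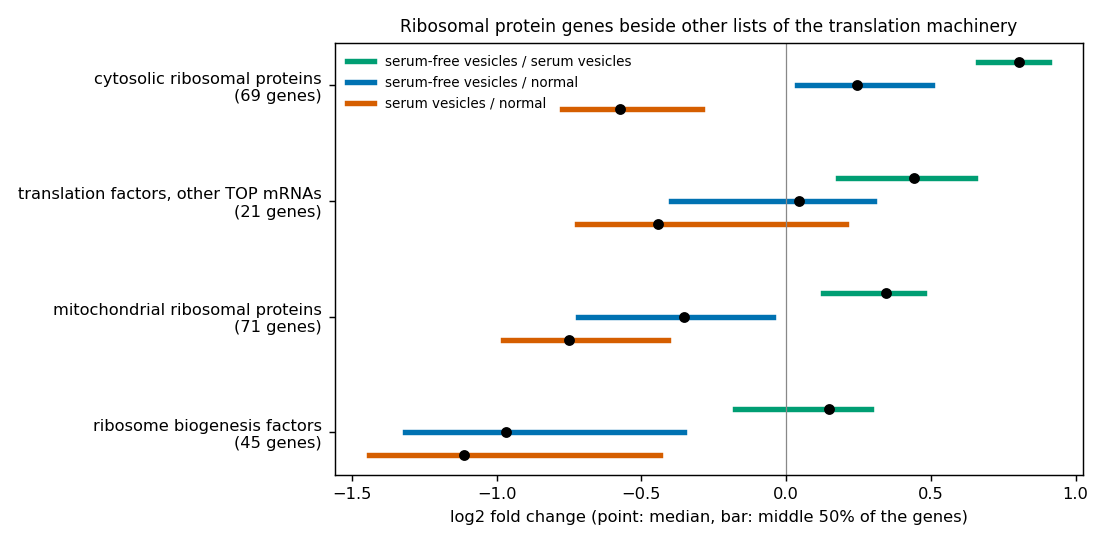
Log2 fold change of 4 lists in 3 comparisons, with the median (point) and the middle 50% of genes (bar). Ribosomal proteins (median 0.25, opposite in sign to their summed share of all counts) and assembly factors (-0.97) stand apart in serum-free vesicles over normal cells, whereas both are below 0 in serum vesicles (-0.57 and -1.11).

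Of 22 MYC and mTORC1 pathway genes, 2 (9.09%) were higher and 4 (18.2%) lower in serum-free than in serum vesicles, a total share (27.3%) near the 24.4% of all genes called. Mycn was higher in that comparison (0.82 ± 0.17, adjusted p = 0.000941) and lower than in normal cells in both, at -1.34 ± 0.16 in serum-free and -2.16 ± 0.17 in serum vesicles. Myc was lower than in normal cells in serum-free vesicles (-1.67), serum vesicles (-2.19), sorted cells (-1.36) and BCS cells (-1.30). Ddit4, an inhibitor of mTORC1, was higher than in normal cells in all 5 groups, from 1.63 in unsorted Chir99021 cells to 2.81 in serum vesicles. Rheb, the activator of mTORC1, was higher in serum-free vesicles (1.46), serum vesicles (1.44) and sorted cells (1.52), and its values in unsorted Chir99021 and BCS cells were 0.16 and 0.04 (adjusted p = 0.642 and 0.9). Of 12 p53 targets and related genes, 6 (50%, against 11.5% of all genes) were lower in serum-free than in serum vesicles and the other 6 did not pass; the lower ones included Cdkn1a (-2.0 ± 0.22, adjusted p = 3.32e-06) and Mdm2 (-0.96 ± 0.14, adjusted p = 4.95e-05).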

How the data were processed

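RNA from 18 cultures of rat pXEN cells in 6 groups of 3 was analysed from gene counts deposited by the authors, who per the submitters' processing notes used bcl2fastq, Trimmomatic 0.38 and STAR 2.6.1 with rn6. The strand-specific column of these raw counts was used. Every file was matched to a sample, so 0 columns were unassigned. Genes were filtered with edgeR's filterByExpr (minimum count 10, 11503 kept), scaled by TMM and fitted in R 4.3.3 with edgeR 4.0.16 (robust quasi-likelihood, 1 mean per group, 12 residual degrees of freedom), with Benjamini-Hochberg adjustment over all genes and a threshold of 0.05. Dispersion over genes gave a biological coefficient of variation of 16.1%. DESeq2 1.42.0 was an alternative. Log2 CPM in the plot by library used a prior count of 2. The code was tested on simulated data.

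Named members were, per comparison, the 5 highest and 5 lowest log2 fold changes among those passing without overlap, a fixed set of 18 symbols and the 3 with the most counts. Of the fixed set, Rpl22 and Rplp1 had no row in these counts. From other lists, up to 3 members per comparison with the smallest adjusted p were named; Fau and values of a named gene in further comparisons were added after their values were seen. Of 17 snoRNA host genes in a further list, 0 passed the filter. Members and lists were chosen with earlier results of these data known. Sequences come from RefSeq, build GRCr8, matched by symbol. Other alternatives were size factors, sizes without the members or without the 2 highest rows, no filter, unstranded counts, passage, a replicate block, thinning, 2-group fits and left-out replicates. Values of some members and listed genes are not reported here, and such members are left out of the plot by library.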

Additional observations from a re-analysis of the deposited data

Results flagged for a closer look

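Of the 69 ribosomal protein genes, 62 changed differently from normal cells in serum-free and in serum vesicles, by the test of serum-free against serum vesicles itself (edgeR, adjusted p under 0.05). For 13 of them the change over normal cells was called higher in serum-free and lower in serum vesicles. In vacuolated cells made with Chir99021, 15 members changed differently from normal cells in sorted and in unsorted cells, by the test of sorted against unsorted cells. Mitochondrially encoded genes took 6.76 to 8.91% of counts outside the unnamed pair in sorted cells and 2.88 to 4.08% in unsorted ones; their part in that difference was not tested.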

How the results depend on the processing

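Counts of called members moved by over 1.5 times, from the values given above, in the following cases. With only the 2 groups of a comparison fitted, 3 were called in unsorted Chir99021 cells over normal cells, 19 in sorted over normal cells and 28 in sorted over unsorted cells, and DESeq2 called 2, 22 and 23. Shares of all genes called under the alternative settings are not given here. A change in the member counts is therefore not read as a result about the family. With library sizes from the summed members, 31 were called in serum vesicles over normal cells and 12 in serum-free over serum vesicles. That scaling also turned the sign of Rpl10 (-0.45), Rplp0 (-0.0522), Rps2 (-0.0610) and Rps4x (-0.13) between the vesicle groups and of Rpl7 (0.14), Rplp0 (0.22) and Rps27 (0.25) in serum vesicles over normal cells, which follows from its construction. As a share of all counts, the log2 ratio of the summed members over normal cells was -0.24 in serum-free vesicles, -0.85 in serum vesicles, -0.43 in sorted, -0.27 in unsorted Chir99021 and -0.40 in BCS cells, and with TMM-scaled CPM the ratio of serum-free to serum vesicles was 0.83. With single replicates left out, the called members ranged from 54 to 62 in serum-free over serum vesicles, 32 to 37 and 44 to 54 in serum-free and serum vesicles over normal cells, 6 to 15 in sorted, 0 to 1 in unsorted Chir99021 and 7 to 19 in BCS cells over normal cells, and 6 to 17 in sorted over unsorted cells. The log2 ratios of the shares over normal cells then ranged from 0.12 to 0.21 in serum-free vesicles, -0.53 to -0.40 in serum vesicles, -0.27 to -0.14 in sorted, -0.13 to -0.04 in unsorted Chir99021 and -0.30 to -0.22 in BCS cells, from 0.58 to 0.71 in serum-free over serum vesicles and from -0.20 to -0.07 in sorted over unsorted cells. The cause of these shifts was not tested. The labels do not pair the replicates, and same-numbered libraries deviated together by correlations of only -0.15 to 0.09. With a replicate block the counts were 62 in serum-free over serum vesicles, 15 in sorted over unsorted cells and, over normal cells, 37 in serum-free vesicles, 49 in serum vesicles, 12 in sorted, 1 in unsorted Chir99021 and 13 in BCS cells, and the block lost the call of Rpl36a (adjusted p = 0.0505). Thinning to 1919117 counts per library, passage as a covariate, other size factors, sizes without the members, removal of the 2 highest rows, no filter and unstranded counts left every count of called members within 1.5 times. Among named members, thinning lost the call of Rpl36 in sorted over unsorted cells (adjusted p = 0.057). With no filter, the calls over normal cells of Rps2 in sorted cells and Rpl7l1 in BCS cells were lost. Fits of only the 2 groups lost Rps27 in serum vesicles over normal cells, and Rpl22l1 and Rpl36a in serum-free over serum vesicles.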
